A study of Solanum tuberosum with 10 samples.

Results

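HMG3 encodes a 3-hydroxy-3-methylglutaryl-CoA (HMG-CoA) reductase of potato. It was chosen by its name, as the row of the count table whose annotated feature is the counted gene itself and carries the symbol HMG3, and it is 1 gene of 40430 features listed. The table places it (PGSC0003DMG400018679) on chromosome 3 from 3011536 to 3015241, minus strand, a gene model spanning 3706 bases with introns not marked, on a genome build that is not named. HMG3 had counts in all 10 libraries and was among the 24421 features that passed the filter on low counts.

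HMG-CoA reductase sits in the membrane of the endoplasmic reticulum and makes mevalonate from HMG-CoA with NADPH. This step is regarded as the main control point of the cytosolic isoprenoid pathway, which supplies sterols, the steroidal glycoalkaloids of potato and, in attacked tissue, sesquiterpene phytoalexins. Potato has a small family of such genes. Its members are known to differ in their response, HMG1 being induced by wounding and HMG2 and HMG3 by pathogens and their elicitors.

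Explants were single nodes with a leaf, cut from in vitro plantlets of the cultivar Desirée that were 4 weeks old. In the ultrasonicated arm they were treated in an ultrasonicator in 50 ml beakers, each with 90 explants and 40 ml of a liquid Murashige and Skoog (MS) medium, and in the control arm they were not ultrasonicated. Both arms then grew on MS medium without growth regulators. Samples were taken at 0 h, directly after treatment in the ultrasonicated arm, after 24 h and 48 h, and after 1 week and 4 weeks. Each of the 10 groups is 1 library from pooled RNA of 3 biological replicates, so no group has replicate libraries. All explants of both arms were cut, so a response to cutting is shared by them, and no uncut group was analysed here. Whether control explants were also immersed is not stated in the sources used here, so immersion and ultrasound cannot be told apart. The tissue label reads stem at 0 h and 24 h and adds plantlet from 48 h, so time and tissue cannot be told apart across that step.

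Total counts ran from 122786170 to 161153911 per library. Factors from trimmed mean of M-values (TMM) scaling were 0.688 in the ultrasonicated and 0.885 in the control library at 0 h and lay between 0.975 and 1.14 in the others. The share of rRNA features was 2.19% in the 24 h control library and at most 0.423% elsewhere. RBCS-2C, a Rubisco small subunit of green tissue, was present in every library at 202 to 2060 CPM, the count scaled to a common library size. WAXY, a starch synthase, ran from 16.3 CPM in the control library at 0 h to 220 CPM in that at 48 h. Between control and ultrasonicated explants it differed at 48 h (220 and 73.9 CPM) and, in the other direction, at 4 weeks (46.7 and 99.3 CPM).

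HMG3 was expressed at a middle level in every library, and its level spanned about the same range in both arms. In control explants it stood at 14.6 CPM at 0 h, 22.3 CPM at 24 h, 28.1 CPM at 48 h, 22.8 CPM at 1 week and 23 CPM at 4 weeks, on 1657, 2671, 5106, 3266 and 3489 reads. Control explants thus had their lowest level at 0 h and their highest at 48 h. In ultrasonicated explants it stood at 29 CPM at 0 h, 22.9 CPM at 24 h, 25.3 CPM at 48 h, 14.1 CPM at 1 week and 20.7 CPM at 4 weeks, on 2790, 2991, 3700, 2003 and 3382 reads. Here the highest level was at 0 h and the lowest at 1 week. Exact 95% Poisson intervals, which cover counting error only, reached from 14 to 15.4 CPM in the control library and from 27.9 to 30.1 CPM in the ultrasonicated library at 0 h. In whole tissue, fewer cells with the transcript and less transcript per cell cannot be told apart.

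**Figure D1:**
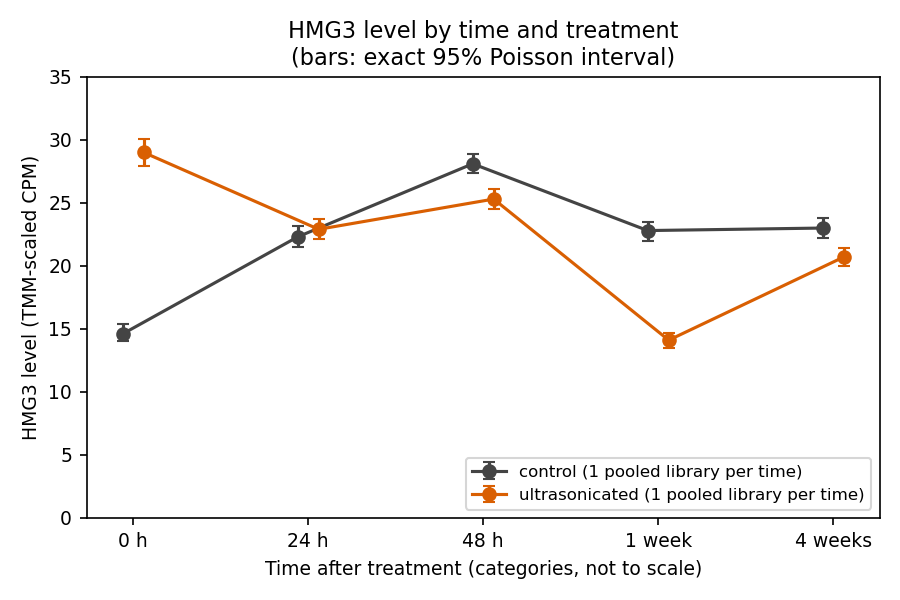
HMG3 level in TMM-scaled CPM (vertical axis) against time (horizontal axis, categories) for control and ultrasonicated explants, each point 1 pooled library with its exact 95% Poisson interval. The arms lie far apart at 0 h (14.6 against 29 CPM), nearly coincide at 24 h (22.3 and 22.9 CPM) and are apart again at 1 week (22.8 against 14.1 CPM).

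Ordered by level, the ultrasonicated library at 1 week and the control library at 0 h were lowest and did not differ beyond counting error, with a ratio of 1.04 and an interval of 0.975 to 1.11. Above a step of 1.42 (1.33 to 1.5) followed the ultrasonicated library at 4 weeks at 20.7 CPM. Next came 4 libraries between 22.3 and 23 CPM (control at 24 h, 1 week and 4 weeks, ultrasonicated at 24 h), and no neighbours among them were separable by counting error. The top was formed by the ultrasonicated library at 48 h, the control library at 48 h and the ultrasonicated library at 0 h, and the last pair was not separable either (1.03, 0.983 to 1.08). The highest library had 2.06 times the level of the lowest (1.94 to 2.18).

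The rank of HMG3 within each library does not depend on how libraries are scaled. HMG3 lay above 57.5% of the tested features in the control library at 0 h and above 70.1% in the ultrasonicated one. At 1 week it lay above 66.4% in control and above 56.3% in ultrasonicated explants. At 48 h in control explants it lay above 72%, its highest place. By this measure, by TMM-scaled level and with total counts as the scaling the same pair of libraries was lowest. The control library at 48 h was highest by this measure and with total counts (31.7 CPM). The ultrasonicated library at 0 h was highest by TMM-scaled level and just below the highest by this measure. With total counts it was among the 3 lowest (19.9 CPM).

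The first comparison asked how HMG3 differed between ultrasonicated and control explants at each time. There is 1 library per arm and time, so these are ratios of libraries with exact 95% binomial (Clopper-Pearson) intervals and no test. At 0 h the ratio was 1.98 (1.86 to 2.1), the largest of the 5. Its interval reached across 2-fold, whereas 11.6% of features were higher in the ultrasonicated library with their whole interval beyond 2-fold, and 11.2% were lower. The ratio of HMG3 was above that of 88.9% of features. The composition of the libraries also differed in this pair: the 100 most abundant features took 18.1% of control and 22.3% of ultrasonicated counts, RBCS-2C stood at 2060 and 688 CPM, and rRNA features at 0.288% and 0.423%. With total counts in place of TMM the HMG3 ratio at 0 h was 1.54 (1.45 to 1.63), while the median feature moved from a log2 ratio of 0 to -0.28. The part of these differences in the HMG3 ratio was not tested.

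At 24 h the arms were level, with a ratio of 1.03 (0.973 to 1.08) whose interval held 1. The control library of that pair is the one with 2.19% rRNA, and with rRNA features left out the ratio was 1.04 (0.988 to 1.1). At 48 h the ultrasonicated library was slightly lower, at 0.899 (0.862 to 0.938), and 32.7% of features had a lower ratio.

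At 1 week ultrasonicated explants had 0.618 times the control level (0.584 to 0.654), the lowest ratio of the 5. Only 14.8% of features had a lower ratio, and 10.4% were lower with their whole interval beyond 2-fold, a bound HMG3 did not pass, while 6.74% were higher. RBCS-2C had the opposite order in this pair, with 962 CPM for control and 1660 CPM for ultrasonicated explants. It also differed between control and ultrasonicated explants at 24 h (202 and 357 CPM) and at 4 weeks (1310 and 683 CPM). In those pairs the HMG3 ratios were 1.03 and 0.902, on the same side of 1 as RBCS-2C. At 48 h RBCS-2C stood at 273 and 240 CPM. By 4 weeks the ratio was 0.902 (0.86 to 0.946). HMG3 was therefore above control in 2 of 5 pairs and below it in the other 3. In none of them was it wholly beyond 2-fold. At 24 h 5.2% of features were higher and 7.15% lower by that rule, at 48 h 2.64% and 5.04%, and at 4 weeks 5.95% and 6.38%.

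**Figure D2:**
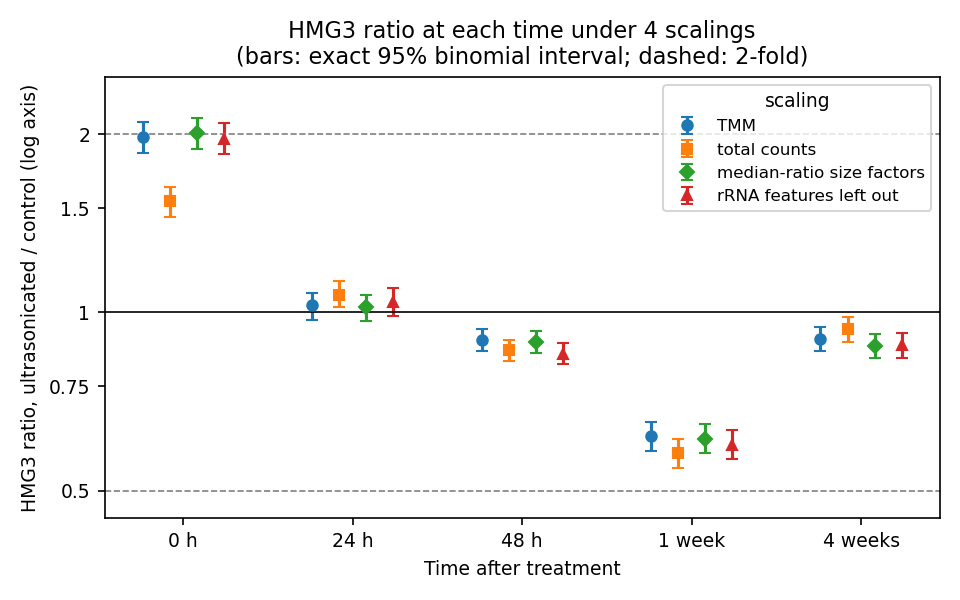
Ratio of HMG3 in ultrasonicated to control explants (vertical axis, log scale) at each time, under 4 scalings of the counts, with exact 95% binomial intervals and dashed lines at 2-fold. The ratio lies above 1 at 0 h under every scaling shown, from 1.54 to 2.01, and below 1 at 1 week, from 0.579 to 0.618.

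A change common to the 5 times was then tested with time as a block. The mean level was 22.2 CPM ± 4.82 (SD, n = 5 times) in control and 22.4 CPM ± 5.57 (SD, n = 5 times) in ultrasonicated explants. HMG3 did not pass the test, with a log2 difference of 0 (SE 0.237, 95% interval -0.55 to 0.55, edgeR adjusted p = 1). Of all features 0% were called by edgeR in this comparison, and 815 of the 24421 tested had an unadjusted p under 0.05. Calls by limma-voom were 0 and by DESeq2 55 (0.239%). An exact two-sided sign-flip permutation test of the 5 paired ratios gave p = 1, where the smallest p that 5 pairs allow is 0.0625.

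The second comparison asked whether HMG3 changed with time after cutting. Averaged over both arms its level was 21.8 CPM ± 10.1 (SD, n = 2) at 0 h. The n = 2 values are the control and the ultrasonicated library, so each SD holds any difference between the arms and is no spread of replicates. The mean was 22.6 CPM ± 0.398 after 24 h and 26.7 CPM ± 2.01 after 48 h. It was 18.4 CPM ± 6.14 after 1 week and 21.9 CPM ± 1.59 after 4 weeks. Neighbours in the order of these means (1 week, 0 h, 4 weeks, 24 h, 48 h) differed by less than the larger SD of each pair, except 48 h above 24 h. That step was not called by edgeR either (log2 0.24, SE 0.374, adjusted p = 0.814). In this comparison 0% of features were called by edgeR, and 3269 of the 24421 tested had an unadjusted p under 0.05. Calls by limma-voom were 0 and by DESeq2 765 (3.26%).

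Over the 5 times together HMG3 did not pass the test (edgeR adjusted p = 0.768), whereas 28% of features did. Against 0 h its log2 differences were 0.05 at 24 h (SE 0.374, 95% interval -0.81 to 0.92, edgeR adjusted p = 0.943) and 0.29 at 48 h (SE 0.374, -0.57 to 1.16, adjusted p = 0.629). They were -0.24 at 1 week (SE 0.374, -1.11 to 0.62, edgeR adjusted p = 0.677) and 0 at 4 weeks (SE 0.374, -0.86 to 0.87, adjusted p = 0.998). In these 4 comparisons 19.9%, 20.5%, 24.7% and 11.7% of features were called. For the step from 48 h to 1 week the difference was -0.54 (SE 0.374, -1.4 to 0.33, edgeR adjusted p = 0.544), where 1.29% of features were called. It was -0.15 without the ultrasonicated library at 1 week and -1.05 without the control library at 1 week. From 1 week to 4 weeks the difference was 0.25 (SE 0.374, edgeR adjusted p = 0.73), where 3.56% were called.

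**Figure D3:**
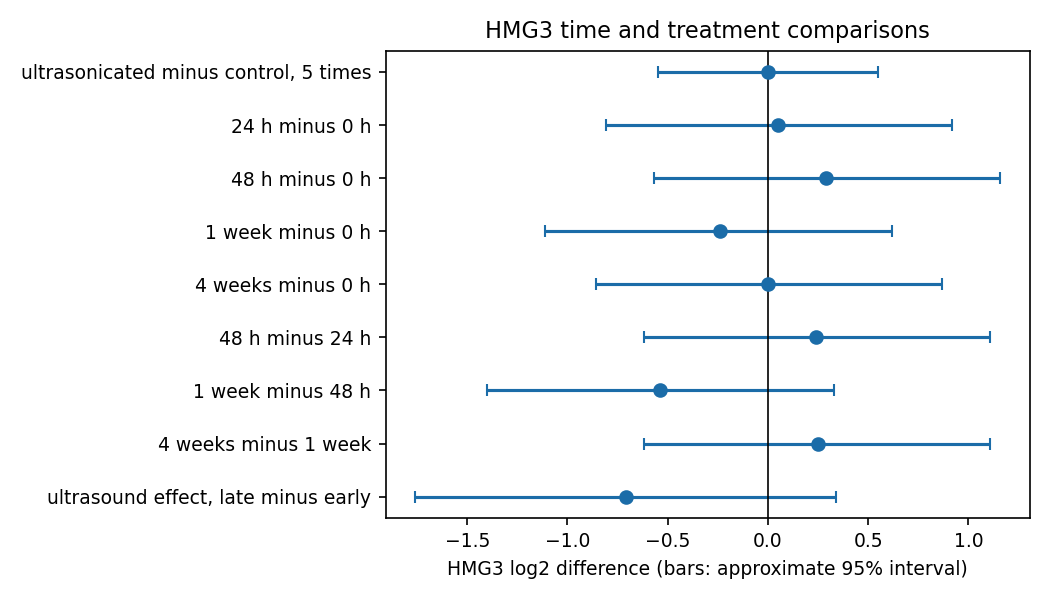
HMG3 log2 differences (horizontal axis) with approximate 95% intervals for the treatment, time and early-against-late comparisons (vertical axis) of the models over all features. Every interval holds 0, and the estimates run from -0.71 to 0.29.

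These averages join arms with different courses. From 0 h to 24 h HMG3 in control explants went up 1.52 times (1.43 to 1.62), and in ultrasonicated explants it went to 0.79 of its level (0.75 to 0.832). By 48 h control explants stood at 1.92 times their own 0 h level (1.82 to 2.03) and ultrasonicated explants at 0.873 times theirs (0.831 to 0.917). The direction in ultrasonicated explants depended on the scaling: with total counts their ratios to 0 h were 1.17 (1.11 to 1.23) at 24 h and 1.37 (1.31 to 1.44) at 48 h, so that both arms went up. With that scaling the median of all features also moved in these steps, by log2 0.43 and 0.55. In control explants the same ratios were 1.68 and 2.44 with total counts. From 48 h to 1 week both arms went down, to 0.809 (0.774 to 0.846) in control and 0.556 (0.527 to 0.587) in ultrasonicated explants. From 1 week to 4 weeks control explants stayed level at 1.01 (0.963 to 1.06), and ultrasonicated explants came back up 1.47 times (1.39 to 1.56). Intervals here cover counting error only, since each value sets 2 libraries side by side.

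Whether the ultrasound effect on HMG3 differed between late times (1 week and 4 weeks) and early times (0 h, 24 h and 48 h) was tested with an interaction term. The effect was 0.71 log2 units lower at late times, which did not pass (log2 -0.71, SE 0.442, 95% interval -1.76 to 0.34, edgeR adjusted p = 1). Here 0% of features were called by edgeR, and 1021 of the 24421 tested had an unadjusted p under 0.05. Calls by limma-voom were 0 and by DESeq2 198 (0.811%). The pairs at 0 h and 1 week together held most of the variation of the HMG3 log2 ratio about its mean, with 64.2% and 32.5%, and the other 3 pairs held at most 1.7% each.

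Set against other features, HMG3 varied little in total, but little of its variation went with time. The SD of its log2 level over the 10 libraries was 0.341, against a median of 0.554 among the 15618 features with a mean of at least 5 CPM, and 18.2% of them varied less. Of this variation 31.9% went with time, against 79.8% for the median feature, and 0.00593% with treatment. The remaining 68.1% went with neither, against a median of 15.5%, and 98.8% of features had a smaller such share. With 1 library per group this share holds both library noise and any effect of ultrasound that differs between times, and these cannot be told apart. It was 35.8% with total counts, where 85.9% of features had less, and 24.7% without the 0 h pair, where 71.5% had less, so it rested largely on that pair and its scaling.

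The table pairs 22 gene models with a symbol, of which 20 were tested. Among these 20 HMG3 had the second highest ratio at 0 h, below CHS1B, a chalcone synthase of flavonoid synthesis (2.35 on 184 and 92 reads), and above WAXY, a granule-bound starch synthase (1.64). RBCS-2C was lowest in that pair, at 0.333. At 1 week HMG3 was 19th of the 20, above EIF5A5, a translation factor, alone (0.605). At 24 h, 48 h and 4 weeks it was 11th, 13th and 11th. For the differences among the 5 times 9 of the 20 genes passed the edgeR test, beside the 28% of all features, and HMG3 was not one of them. Per kilobase of gene span, introns included, its mean level of 6.01 CPM was 14th of the 20, between IVD, an isovaleryl-CoA dehydrogenase (6.44), and NDB1, an alternative NAD(P)H dehydrogenase (5.35).

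**Figure D4:**
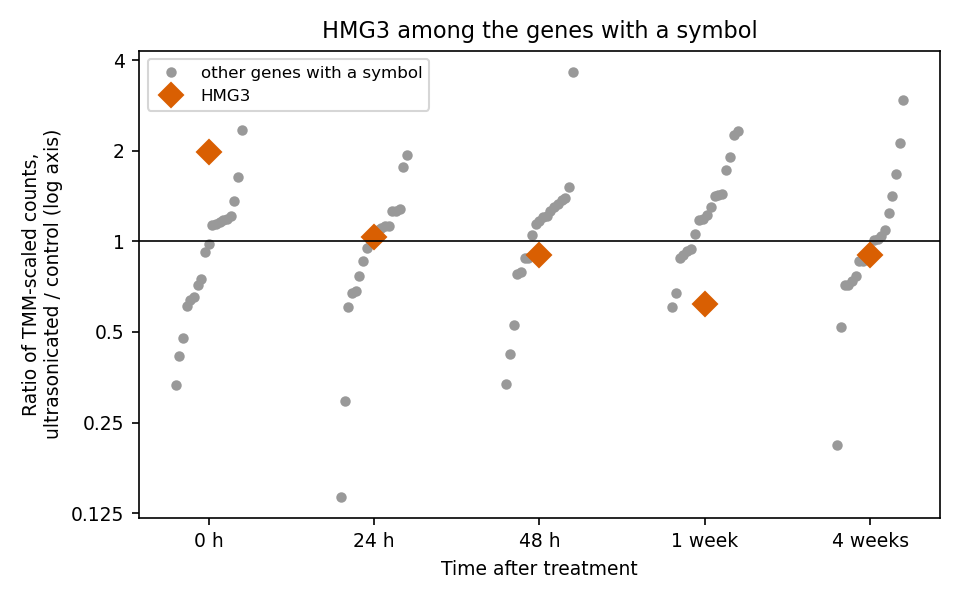
Ratio of TMM-scaled counts in ultrasonicated to control explants (vertical axis, log scale) at each time for HMG3 (diamonds) and the other tested genes with a symbol (points, in order of their ratio and spread sideways for display), leaving out ATPE at 1 week, which had 0 control reads. HMG3 is second highest at 0 h (1.98), second lowest at 1 week (0.618) and in the middle at the other times.

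Likeness of pattern was measured as Pearson's r of log2 levels over the 10 libraries, which share time points and scaling, and it is given as a description. Among 15617 features 7 had an r of at least 0.9 with HMG3. The highest was PGSC0003DMG400029744 on chromosome 1 (81566672 to 81567534), with r = 0.965 and Spearman's rho = 0.976. In control explants it had 2.36 CPM at 0 h and 6.99 CPM at 1 week, and in ultrasonicated explants 17.7 and 1.44 CPM. PGSC0003DMG400001804, also on chromosome 1 (67558231 to 67567291), followed with r = 0.93 (rho = 0.818), with 45.7 CPM at 0 h and 82.2 CPM at 1 week in control explants, and 230 and 26.2 CPM in ultrasonicated ones. Both had the order of arms seen for HMG3 at these times, over a wider range. They were chosen by r over these same libraries, so the shared order is no separate result. The table gives neither a name.

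The most opposite patterns were those of PGSC0003DMG400001510 on chromosome 2 (38333034 to 38336937), with r = -0.933 (rho = -0.939), and PGSC0003DMG400008569 on chromosome 12 (937306 to 944083), with r = -0.9 (rho = -0.709). For the first, control explants had 13.7 CPM at 0 h and 11.2 CPM at 1 week, and ultrasonicated explants 7.32 and 16.9 CPM. Without the ultrasonicated library at 1 week and the control library at 0 h, the farthest from the median HMG3 level, the r values of these 4 features were 0.845, 0.788, -0.838 and -0.609. With total counts they were 0.855, 0.829, -0.259 and -0.491.

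**Figure D5:**
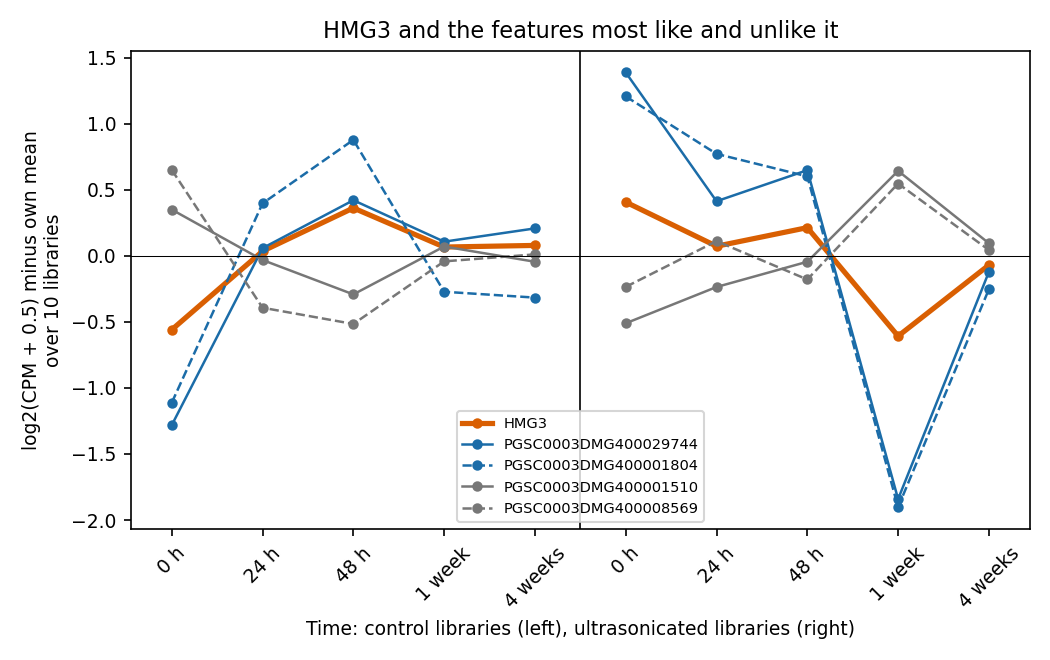
Log2 level of HMG3 and of the features most like it (blue) and most unlike it (grey), each minus its own mean over the 10 libraries (vertical axis), in control libraries (left) and ultrasonicated libraries (right) by time. The blue features share the low control level at 0 h and the low ultrasonicated level at 1 week with HMG3 (r = 0.965 and 0.93), and the grey ones run opposite.

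Among genes with a symbol the closest by r were WAXY (r = 0.538), EIF5A3, a translation factor (0.505), and SS2, a starch synthase (0.448). Their Spearman's rho was 0.248, 0.418 and 0.345, and that of IVD was 0.37, so WAXY was not the closest by rank. Without the same pair of libraries the r values of WAXY, EIF5A3 and SS2 were -0.137, -0.074 and 0.209. Without both 0 h libraries they were 0.678, 0.487 and 0.467, and with total counts 0.769, 0.661 and 0.5. The likeness of WAXY and EIF5A3 thus depended on which libraries were left out. The most opposite by r were NDA1, an alternative NAD(P)H dehydrogenase (r = -0.68), and RBCS-2C (-0.672). Without that pair of libraries they had -0.613 and -0.197, and with total counts -0.287 and -0.61.

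HMG3 overlapped 0 other features. Its nearest neighbour, PGSC0003DMG400018665, lies on the plus strand of chromosome 3 (3005781 to 3009703) and ends 1832 bases before HMG3, so that the pair face each other with their ends. At 0 h its level was 22.4 CPM with ultrasound and 9.58 CPM without, a ratio of 2.33 beside 1.98 for HMG3. At 1 week it was 27.6 against 30.2 CPM, a ratio of 0.915 beside 0.618. The neighbour on the other side, PGSC0003DMG400018680 (3025580 to 3031909, minus strand), lies 10338 bases beyond HMG3 and had ratios of 1.73 and 1.55. Over the 10 libraries r with HMG3 was 0.483 and 0.35, and without the ultrasonicated library at 1 week and the control library at 0 h it was 0.57 and -0.419. The ratios at 0 h were above 1 for all 3 adjacent genes, in a pair where the median feature had a log2 ratio of 0. PGSC0003DMG400018680 was weakly expressed, with 1.37 CPM in the control and 2.37 CPM in the ultrasonicated library at 0 h. Its mean of 3.59 CPM was under the 5 CPM asked of features in the search for likeness. At 1 week HMG3 had the lowest ratio of the 3. Whether the adjacent genes changed together was not tested.

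Of 30 other symbols of isoprenoid, sterol and glycoalkaloid synthesis that were looked for, among them HMG1, HMG2, HMG-CoA synthase, farnesyl diphosphate synthase and squalene synthase, 0 were found in the table. The RefSeq gene table for assembly SolTub_3.0 lists 10 of the 30 symbols, and HMG3 itself as a synonym, but 0 identifiers of the count table, so the other steps of the pathway were not analysed here. Whether reads of the related HMG1 and HMG2 genes were counted for HMG3 was not tested, because the handling of multiply mapped reads is not given in the sources used here.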

How the data were processed

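Per the labels' protocols, a stranded mRNA kit was used. HISAT2 2.1.0, Trim Galore 0.5.0 and FastQC 0.11.5 are named, per the submitters' processing notes. For the counting program, its strand setting, the annotation and the genome build, the entry is: not given in the sources used here. Values as deposited are raw read counts per feature, whole numbers without normalization by the authors, and each column was matched to a library by its label.

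R 4.3.3 with edgeR 4.0.16 was used on these counts. The low-count filter was filterByExpr by arm, scaling was TMM, and quasi-likelihood F-tests covered all 24421 features with Benjamini-Hochberg adjustment at 0.05. The main model held time and treatment, with 4 residual degrees of freedom. A separate model with a further term for late against early times served the interaction test only. The spread behind each p-value is that of pooled libraries, not of plants, and an ultrasound effect at a single time enters that spread. Standard errors come from the inverse information of the fit times its quasi-likelihood variance. Log2 levels had 0.5 CPM added. Reads without molecular identifiers are not independent molecules. The code was tested on simulated data. DESeq2 1.42.0, limma 3.58.1, other scalings, other filters and leaving out each library were alternatives.

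The features named were HMG3, the 2 IDs most like and the 2 most unlike it at a mean of at least 5 CPM, the 3 most similar genes with a symbol and the adjacent genes. WAXY, RBCS-2C and the rRNA share served as tissue and RNA checks. Other genes with a symbol were named after their values were seen. The gene, the lists and the tests were chosen with earlier results of these data known.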

Additional observations from a re-analysis of the deposited data

Results flagged for a closer look

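HMG3 was higher in ultrasonicated than in control explants at 0 h, with a ratio of 1.98, and lower at 1 week, with a ratio of 0.618. These ratios had opposite directions, with 1 library per arm at each time, so library differences and ultrasound cannot be told apart in them. The difference between these 2 times was not tested by itself. The interaction of late against early times, which also takes in the other times, did not pass its test.

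From 0 h to 24 h HMG3 went to 1.52 times its level in control explants and to 0.79 times its level in ultrasonicated explants, opposite directions in the arms. That difference was not tested. With total counts as the scaling both arms went up, by ratios of 1.68 and 1.17. The median of all features then also moved, by log2 0.11 in control and 0.43 in ultrasonicated explants. In rank within the library, HMG3 went from above 57.5% to above 65.7% of tested features in control explants. In ultrasonicated explants it went from above 70.1% to above 66%. The comparison shares its 0 h libraries with the ratio of 1.98.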

How the results depend on the processing

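HMG3 passed the 0.05 threshold in 0 of the 17 alternatives of each of the 10 tested comparisons. With all libraries kept, the lowest adjusted p was 0.115, by edgeR with total counts for 48 h against 0 h (log2 0.83). Several differences changed sign. The ultrasound effect over the 5 times was -0.07 with total counts, -0.01 with median-ratio size factors and with DESeq2, -0.03 without rRNA features, -0.04 with the stricter filter (1 CPM in 5 libraries) and -0.02 with limma-voom. The difference of 4 weeks from 0 h was -0.06 with median-ratio size factors and with DESeq2, -0.01 without rRNA features and -0.03 with the stricter filter. That of 24 h from 0 h was -0.01 with the stricter filter, and that of 1 week from 0 h was 0.22 with total counts. That scaling took the median of all features from 0.06 to 0.46 in the last comparison.

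Leaving out each library in turn gave -0.24 to 0.18 for the ultrasound effect, -0.47 to 0.7 for 24 h, -0.24 to 0.93 for 48 h, -0.8 to 0.33 for 1 week and -0.53 to 0.64 for 4 weeks against 0 h, and -0.14 to 0.72 for 4 weeks against 1 week. For all 4 comparisons with 0 h the lowest value came without the control library and the highest without the ultrasonicated library at 0 h, so both ends rest on single libraries. The lowest for 4 weeks against 1 week came without the ultrasonicated library at 1 week. The difference of 1 week from 48 h kept its sign, from -1.05 to -0.15. The interaction kept its sign, from -1 to -0.35. Ratios moved beyond their counting intervals at 0 h (1.54) and 1 week (0.579) with total counts and at 48 h (0.852) without rRNA features, each on the same side of 1. Within ultrasonicated explants, ratios to 0 h turned from below to above 1 with total counts, to 1.17 at 24 h, 1.37 at 48 h and 1.18 at 4 weeks, a scaling tried after seeing the data. The median of all features moved by log2 0.43, 0.55 and 0.64 in these steps with that scaling.

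Of the 10 features most like HMG3, 4 remained with Spearman's rho, 4 with total counts, 2 without both 0 h libraries and 0 without the 2 libraries farthest from its median level, the last pair of settings chosen after seeing the data, as were those for the share of variation with neither time nor treatment. Depth was ample for HMG3, and the single library per group limits the comparisons.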
